A study of Mus musculus with 15 samples.

Results

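Amino acid and peptide transporters of the mouse ileum were followed as 10 genes chosen by name, out of 17752 genes listed in any mouse. They were matched by gene symbol in the table of each mouse, a gene missing from a table was given 0, and all 10 were found and passed the filter on low counts. The genes are Slc6a19, Slc6a20a, Slc7a9, Slc3a1, Slc7a7, Slc7a8, Slc15a1, Slc1a1, Slc3a2 and Slc6a14. Proanthocyanidins (PAC), plant polyphenol polymers from grape, were given to female C57BL/6 mice, and RNA of intestinal tissue, named as ileum in the methods, was sequenced. Each of the 3 groups held 5 mice aged 8 weeks. One group received water and the others PAC of low or high molecular weight (low PAC and high PAC), at 200 mg/kg by gavage every 2 days over 10 days. The methods describe the larger polymer as of medium mean degree of polymerization, and the label's name is kept here.

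Dietary protein leaves the gut lumen as free amino acids and as small peptides. On the brush border of enterocytes, the absorptive cells, B0AT1 (Slc6a19) takes up neutral amino acids with sodium, SIT1 (Slc6a20a) takes up proline and related imino acids, EAAC1 (Slc1a1) takes up glutamate and aspartate, and PEPT1 (Slc15a1) takes up dipeptides and tripeptides with protons. Cystine and cationic amino acids enter through b0,+AT (Slc7a9), which needs the heavy chain rBAT (Slc3a1). On the basolateral side, y+LAT1 (Slc7a7) and LAT2 (Slc7a8) pair with the heavy chain 4F2hc (Slc3a2). ATB0,+ (Slc6a14) has a broad substrate range. On GRCm38, the build that GEO's notes name as mm10, the GENCODE annotation places Slc6a19 at chr13:73679745-73704865 on the minus strand, Slc6a20a at chr9:123634770-123678885 on the minus strand, Slc7a9 at chr7:35448796-35466036 on the plus strand, Slc3a1 at chr17:85028376-85064236 on the plus strand, Slc7a7 at chr14:54369442-54417780 on the minus strand. It places Slc7a8 at chr14:54722209-54781946 on the minus strand, Slc15a1 at chr14:121459621-121505252 on the minus strand, Slc1a1 at chr19:28835049-28913960 on the plus strand, Slc3a2 at chr19:8706882-8723369 on the minus strand and Slc6a14 at chrX:21714896-21742355 on the plus strand.

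The depth per mouse, as total expected counts, ran from 15963086 to 17903886. The tissue carried ileal and enterocyte genes: the summed FPKM (fragments scaled by transcript length and sequencing depth) of 5 distal ileum markers was between 5098.96 and 11784.7 in the 15 mice, 4 listed colon markers summed to at most 16.18, and the 3 listed pancreas markers to at most 0.15. High PAC replicate 3 stood apart, with a sum of 6243.76 over 10 enterocyte markers against 8461.92 to 10165.4 in the other high PAC mice. Its sums were the highest of the group for 4 goblet cell markers (11299.4, others 6193.71 to 7973.62), 5 markers of crypt and dividing cells (456.78, others 274.33 to 308.72) and 5 macrophage markers (132.04, others 77.63 to 87.23), and its FPKM over all genes summed to 677075, against 502110 to 573980 in the other 14 mice. The part of these differences in the results was not tested. Low PAC replicate 2 had the highest sum over 13 epithelial inflammatory response genes, 15664.1 against 1166.8 to 2694.24 in the other low PAC mice.

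Both subunits of the cystine transporter are, among the 10 transporters, the pair whose levels followed each other most closely below, so the 250 bases before an annotated start of each are shown, from RefSeq on GRCm38.p6, 5′ to 3′. Capitals mark matches on either strand to AGATAA and TTTATNG, the motifs searched for the GATA and CDX families, whose members include factors of the intestinal epithelium.
Slc3a1, chr17:85028097-85028346, plus strand: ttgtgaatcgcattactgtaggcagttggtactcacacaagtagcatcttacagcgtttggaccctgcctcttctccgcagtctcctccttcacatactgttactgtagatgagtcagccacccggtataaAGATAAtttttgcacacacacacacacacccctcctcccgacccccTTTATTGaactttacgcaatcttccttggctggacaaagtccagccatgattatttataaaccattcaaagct
Slc7a9, chr7:35448842-35449091, plus strand: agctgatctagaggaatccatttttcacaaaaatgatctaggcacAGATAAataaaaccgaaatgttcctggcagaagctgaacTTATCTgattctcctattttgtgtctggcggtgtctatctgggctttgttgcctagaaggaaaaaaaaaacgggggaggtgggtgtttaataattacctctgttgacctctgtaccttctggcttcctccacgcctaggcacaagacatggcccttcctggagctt
The Slc3a1 sequence held AGATAA from 119 bases and TTTATNG from 73 bases before the start, and the Slc7a9 sequence held AGATAA from 205 bases and, on the minus strand, from 166 bases before it. The Slc7a9 stretch lies before a RefSeq start but within the span that GENCODE gives the gene, and the other of its 2 RefSeq windows, at chr7:35448929-35449228, held 0 matches to any of the motifs searched. Over all 32851 RefSeq windows of 300 bases, 11.2% held AGATAA and 10.9% held TTTATNG. Among the windows of the 10 transporters, AGATAA was otherwise found only at Slc7a7, GTTAAT (the first part of an HNF1 motif, present in 7.1% of all windows) at Slc6a20a, Slc7a7 and Slc3a1, and TGATGNAA (an amino acid response element, 3.97%) at Slc7a7. No window of the 10 held the full HNF1 motif (present in 0.00913% of all windows) or TGACNNNGC (an antioxidant response element, 12.4%). GTTAAT was chosen after the full motif had been searched. A match is a string of letters in this window and was not tested as a site.

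With water, the peptide transporter and Slc6a19 had the highest means, and 9 of the 10 genes were abundant. Mean FPKM, which is per length and so can be compared between genes, was 243.1 ± 66.6 (SD, n = 5) for Slc15a1, 228.3 ± 16.6 for Slc6a19, 187.4 ± 18.1 for Slc7a9, 153.2 ± 20.3 for Slc3a1 and 120.5 ± 9.41 for Slc7a7. Lower levels were found for Slc6a20a (99.3 ± 9.77), Slc3a2 (83.3 ± 9.44), Slc1a1 (55.9 ± 8.16) and Slc7a8 (55.2 ± 17.3). Slc6a14 was near the lower limit of the files at 0.158 ± 0.16. Neighbours in this order were compared over the 15 mice by exact sign-flip permutation tests, two-sided, with p adjusted over the 9 pairs. Slc15a1 and Slc6a19 did not differ beyond their spread (adjusted p = 0.0651, exact permutation test), and Slc15a1 was the higher of the pair in 4 of 15 mice and in 2 of 5 with water. Without water replicate 4 the water means were 219.4 FPKM for Slc15a1 and 226.7 for Slc6a19, so that their order turned. Slc1a1 and Slc7a8 had like means with water, and Slc1a1 was the higher in 3 of 5 water mice. Over all 15 mice, with mean Slc7a8 at 55.2, 42.3 and 38.5 FPKM for water, low PAC and high PAC, it was higher in 12 (adjusted p = 0.029, exact permutation test). Each other neighbour pair differed over the 15 mice, with an adjusted p of at most 0.0342 (exact permutation test). The order was taken from water means that are part of the values tested, so these p-values do not test it.

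**Figure D1:**
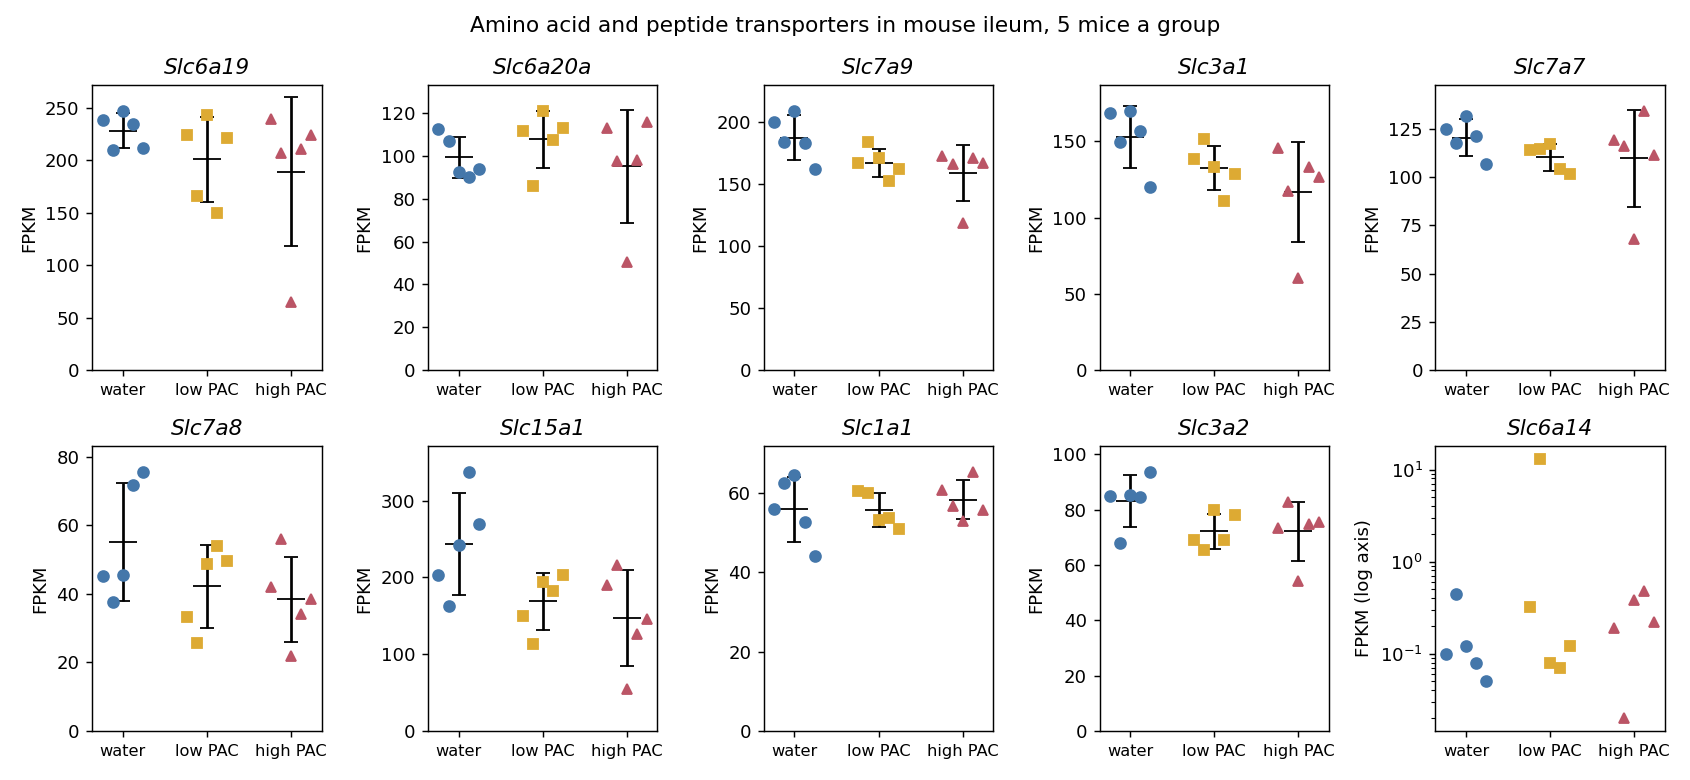
FPKM of the 10 transporters in each mouse (1 point a mouse, ordered by replicate from left to right), for water (blue circles), low PAC (yellow squares) and high PAC (red triangles). Black bars are the mean and SD of 5 mice, the axis of Slc6a14 is logarithmic and without bars, and the lowest triangle of Slc6a19, 65.07, is high PAC replicate 3.

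The first question was whether PAC altered the uptake genes of the brush border. No transporter passed an adjusted p under 0.05 in high PAC against water (edgeR's quasi-likelihood test with Benjamini-Hochberg adjustment over 14386 genes), where 0.0139% of all genes did. Likewise 0 of 10 passed in low PAC against water and in high PAC against low PAC, where 0% of all genes did. At an unadjusted p under 0.05, 5 of the 10 were lower with high PAC (Slc15a1, Slc7a8, Slc3a1, Slc7a9 and Slc3a2), against 10.4% of all genes, and 1 (Slc3a2) was lower with low PAC, against 2.21%. Slc6a14 had an unadjusted p under 0.05 in the direction of a higher level with low PAC, through 1 mouse. The median log2 fold change of the 10 was -0.32 with high PAC and -0.23 with low PAC, beside 0.00 and -0.01 over all genes. Both comparisons share the water mice. The 10 genes were chosen with earlier results of these data known, and many of them vary together over the mice. These counts therefore do not test the set.

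These values moved with high PAC replicate 3. Without that mouse, 3 of the 10 were lower with high PAC at an unadjusted p under 0.05 (Slc15a1, Slc7a9 and Slc3a1), against 5.62% of all genes, and 4 were lower with low PAC (Slc3a2, Slc15a1, Slc7a9 and Slc3a1), against 2.72%. The larger count with high PAC than with low PAC thus rested on 1 mouse. The median log2 fold change of the 10 was then -0.14 with high PAC and -0.21 with low PAC, so that the order of the groups turned. With limma on log2(FPKM + 0.1) in all mice, 3 of the 10 were lower with high PAC at that p (Slc15a1, Slc7a9 and Slc3a1), against 3.67% of all genes. That fit differs from the main one in its test, its values and its normalization. Between the fits, the split of all genes at that p turned from 628 higher and 1500 lower in edgeR to 2269 higher and 528 lower in limma on FPKM. It turned within edgeR too, to 1505 higher and 816 lower (5.67% of all genes), when the scaling alone was changed to the upper quartile, and 5 of the 10 transporters were lower at that p there too. DESeq2 called 0 of the transporters and 0.779% of all genes in high PAC against water, and gave no p for Slc6a14.

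**Figure D2:**
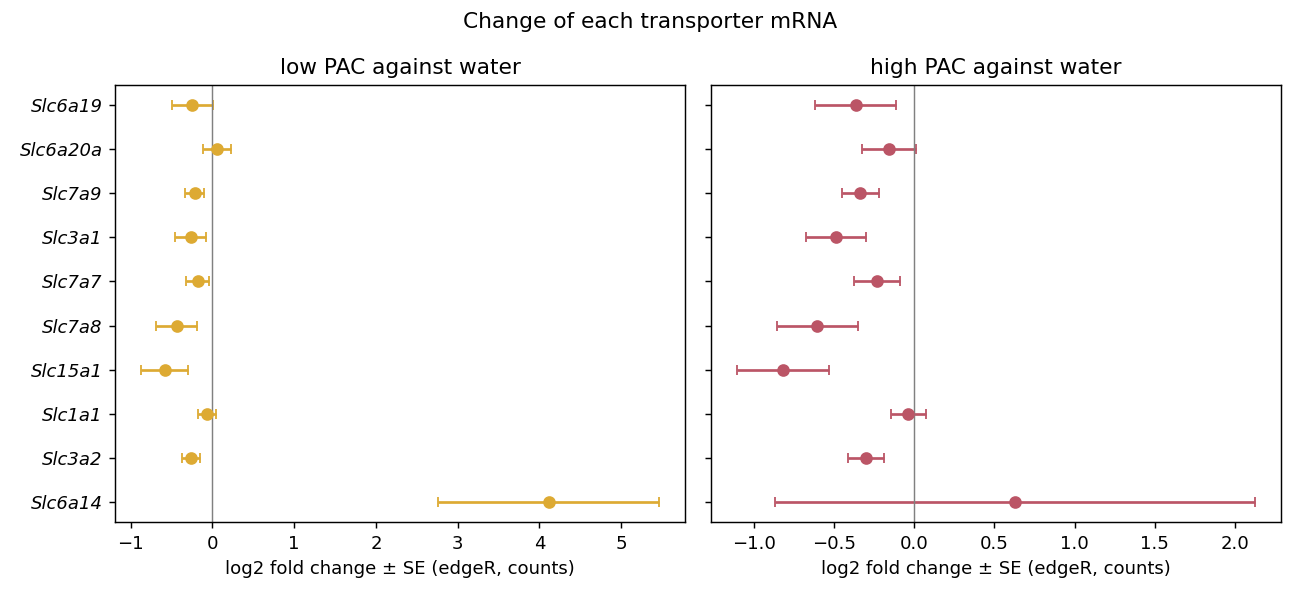
Log2 fold change of each transporter against water with its standard error, from edgeR on expected counts of 15 mice, for low PAC (left, yellow) and high PAC (right, red). The horizontal scales differ; 9 of 10 points lie below 0 for high PAC, and Slc6a14 for low PAC (4.12 ± 1.35) rests on 1 mouse.

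The peptide transporter Slc15a1 had the largest difference among the 9 abundant genes. Its FPKM was 203.56, 162.55, 241.65, 337.82 and 269.73 with water, 149.41, 113.71, 194.5, 182.72 and 203.27 with low PAC, and 190.55, 216.53, 54.88, 126.15 and 145.26 with high PAC. All 5 mice of each PAC group were below the water median, 3 high PAC mice and 2 low PAC mice were below the lowest water mouse, and the groups overlapped. The log2 fold change was -0.82 ± 0.29 (SE) with high PAC (edgeR adjusted p = 0.25) and -0.58 ± 0.29 with low PAC (adjusted p = 0.976). Without high PAC replicate 3 it was -0.58 ± 0.22 (edgeR adjusted p = 0.395). By the exact permutation test of log2(FPKM + 0.1), two-sided, p was 0.0476 for high PAC and 0.0635 for low PAC, both 0.381 after adjustment over the 30 tests of the 10 genes in 3 comparisons.

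The cystine and cationic amino acid pair varied together. FPKM of the light chain Slc7a9 was 200.12, 183.61, 208.91, 182.79 and 161.79 with water, 166.99, 183.57, 170.59, 152.57 and 161.81 with low PAC, and 172.61, 165.71, 118.72, 170.8 and 166.94 with high PAC. All PAC mice were below the water median, but 4 of 5 in each PAC group lay within the water range. The heavy chain Slc3a1 was at 168.97, 149.78, 170.09, 157.05 and 120.16 with water, 138.58, 151.39, 133.45, 111.28 and 128.57 with low PAC, and 145.7, 117.86, 60.59, 133.57 and 126.52 with high PAC. Its groups overlapped too, and 2 high PAC mice were below the lowest water mouse. The log2 fold change with high PAC was -0.34 ± 0.12 for Slc7a9 (edgeR adjusted p = 0.247) and -0.49 ± 0.19 for Slc3a1 (adjusted p = 0.271). Without high PAC replicate 3 they were -0.20 ± 0.08 and -0.29 ± 0.11. The ratio of Slc7a9 to Slc3a1 in FPKM lay between 1.16 and 1.37 in the water and low PAC mice and reached 1.96 with high PAC, in replicate 3.

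Of the neutral and imino acid carriers, Slc6a19 was at 238.09, 209.98, 247.07, 234.94 and 211.55 FPKM with water, 223.94, 166.26, 242.71, 150.19 and 221.06 with low PAC, and 239.75, 206.97, 65.07, 210.94 and 223.65 with high PAC. The high PAC mice other than replicate 3 lay between 206.97 and 239.75, near the water range. The log2 fold change moved from -0.37 ± 0.25 (edgeR adjusted p = 0.486) to -0.11 ± 0.12 without that mouse. Slc6a20a lay between 90.37 and 112.52 with water, 85.83 and 121.01 with low PAC and 50.69 and 115.78 with high PAC. Its log2 fold change with high PAC was -0.16 ± 0.17 and turned to 0.04 without replicate 3. Its paralog Slc6a20b, with which reads can be shared, was at 0.92 to 3.17 FPKM in the 15 mice. Slc1a1 was the steadiest of the 10 between groups, with means of 55.9 ± 8.16, 55.6 ± 4.35 and 58.3 ± 4.84 FPKM (SD, n = 5) for water, low PAC and high PAC.

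On the basolateral side, Slc7a8 spread widely within each group. It was at 45.34, 37.65, 45.47, 71.88 and 75.71 FPKM with water, 33.33, 25.79, 48.62, 53.97 and 49.68 with low PAC, and 42.16, 55.94, 21.81, 34.07 and 38.59 with high PAC. Water replicates 4 and 5 were the highest of all 15 mice, and the other water mice overlapped with both PAC groups. The log2 fold change with high PAC was -0.61 ± 0.25 (edgeR adjusted p = 0.295). It was -0.49 ± 0.26 without water replicate 4 and -0.43 ± 0.24 without high PAC replicate 3. The heavy chain Slc3a2 was at 84.87, 67.86, 85.43, 84.48 and 93.79 FPKM with water, 68.92, 65.31, 79.81, 69.04 and 78.22 with low PAC, and 73.45, 82.8, 54.11, 74.7 and 75.67 with high PAC. All 10 PAC mice were below the water median. Low PAC replicate 2 and high PAC replicate 3 were also below the lowest water mouse, and the other 8 lay within the water range. Its log2 fold change was -0.30 ± 0.11 with high PAC (edgeR adjusted p = 0.266) and -0.26 ± 0.11 with low PAC (adjusted p = 0.976), and -0.18 ± 0.09 and -0.24 ± 0.08 without high PAC replicate 3. Slc7a7 lay between 106.6 and 131.94 FPKM with water, 101.55 and 117 with low PAC and 67.79 and 134.38 with high PAC, and its log2 fold change with high PAC was -0.23 ± 0.14 (edgeR adjusted p = 0.446), or -0.06 ± 0.08 without replicate 3.

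Slc6a14 was at 0.1, 0.44, 0.12, 0.08 and 0.05 FPKM with water, 0.32, 13.12, 0.08, 0.07 and 0.12 with low PAC, and 0.19, 0.02, 0.38, 0.48 and 0.22 with high PAC. Low PAC replicate 2 held 786 counts, and the other 14 mice between 1 and 29. The fitted log2 fold change with low PAC was 4.12 ± 1.35 (edgeR adjusted p = 0.976), and -0.12 ± 0.74 without that mouse. A re-implementation of NOIseq called Slc6a14 in low PAC against water (probability 0.806) and no other transporter in any comparison. It called 0.139% of genes in high PAC against water, 0.104% in low PAC against water and 0.0865% in high PAC against low PAC. Slc15a1 had a higher probability in high PAC against water, 0.821, but its log2 ratio of -0.73 was short of the 2-fold that a call also required. For Slc6a14 without low PAC replicate 2 the probability was 0.0707.

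The 2 PAC preparations were given at the same dose and time. High PAC against low PAC gave log2 fold changes between -0.24 and 0.03 in the 9 abundant genes, with standard errors from 0.11 to 0.29 and edgeR adjusted p of at least 0.896. For Slc15a1 the difference was -0.24 ± 0.29, and without high PAC replicate 3 it was -0.01 ± 0.22. In no comparison did the groups of a transporter lie fully apart, while 0.646% of genes were lower without overlap in high PAC against water and 0.111% in low PAC against water.

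Mice of one group also differed from each other, and 15 relations were computed on log2(FPKM + 0.1) with group means subtracted (15 mice, 100000 permutations within groups, p adjusted over the 15). Slc7a9 followed Slc3a1 with r = 0.97 (adjusted permutation p = 0.00015, which is the smallest the permutations can give after adjustment) and rho = 0.93 (adjusted permutation p = 0.00015), and r was 0.89 when the 2 mice with the most extreme Slc3a1 were left out. Slc7a8 followed its heavy chain Slc3a2 (r = 0.80, adjusted permutation p = 0.00356; rho = 0.75, adjusted p = 0.0145; r = 0.69 without the 2 farthest mice). Slc7a7 did not pass (r = 0.58, adjusted permutation p = 0.225; rho = 0.29, adjusted p = 0.355), and r was -0.06 without the 2 farthest mice, so that its r rested on them. Such values were not limited to subunits of one transporter: r was 0.94 for Slc7a7 with Slc3a1, 0.90 for Slc15a1 with Slc7a8 and 0.87 for Slc15a1 with Slc3a2. These are levels of mRNA in the same libraries, which share the cell makeup of the piece.

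**Figure D3:**
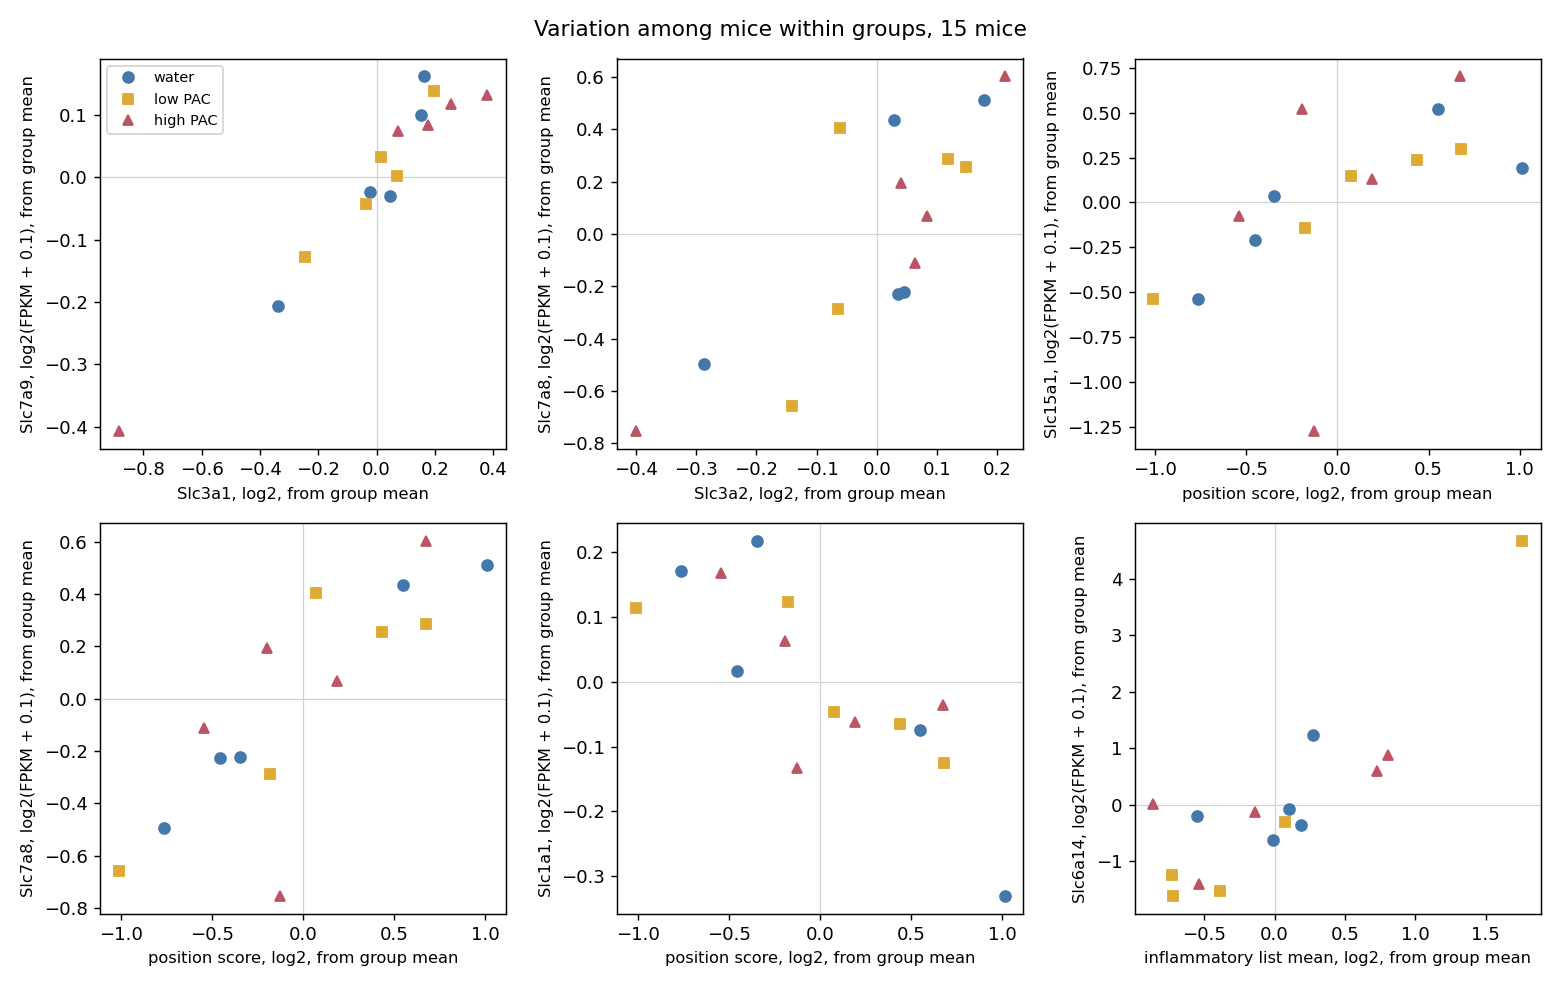
Deviation of each mouse from its group mean, in log2 units, for a transporter (vertical) against a partner or score (horizontal), with 15 mice a panel and water, low PAC and high PAC as in the legend. Slc7a9 rises with Slc3a1 along a line that high PAC replicate 3 extends, Slc1a1 falls as the position score rises, and the top point of Slc6a14 is low PAC replicate 2.

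A piece of ileum can lie nearer to or farther from the jejunum, and a position score was taken as the mean log2(FPKM + 0.1) of 7 proximal small intestine genes less that of 5 distal ileum genes. It ran from -6.32 to -4.54 with water, from -7.36 to -5.68 with low PAC and from -6.85 to -5.64 with high PAC, and water replicates 5 and 4 had the most proximal values of all mice. The genes of the score did not all move alike with high PAC against water. Of 6 tested proximal genes 4 were lower and 2 higher, and of 5 distal genes 3 were lower and 2 higher. Within groups, Slc7a8 (r = 0.82, adjusted permutation p = 0.0032; rho = 0.79, adjusted p = 0.00941), Slc15a1 (r = 0.60, adjusted permutation p = 0.0205; rho = 0.70, adjusted p = 0.0151) and Slc3a2 (r = 0.61, adjusted permutation p = 0.027; rho = 0.63, adjusted p = 0.0291) rose with the score. Slc1a1 (r = -0.81, adjusted permutation p = 0.00363; rho = -0.80, adjusted p = 0.00941) and Slc6a14 (r = -0.74, adjusted permutation p = 0.00075; rho = -0.76, adjusted p = 0.00502) fell with it. Without the 2 farthest mice, low PAC replicate 2 and water replicate 5, r was 0.75, 0.58, 0.54, -0.75 and -0.77 in that order. Slc6a14 had at most 29 counts in each mouse but low PAC replicate 2, which also had the lowest score. Its r with the score was -0.75 without that mouse. The call of Slc15a1 was lost without water replicate 2 (r = 0.54, adjusted permutation p = 0.0502) or low PAC replicate 2 (r = 0.53, adjusted p = 0.0848), and that of Slc3a2 without water replicate 2 (0.52), water replicate 5 (0.55) or low PAC replicate 2 (0.58). Slc6a19, Slc6a20a and Slc7a7 did not pass, and Slc7a9 (r = -0.36, adjusted permutation p = 0.241) and Slc3a1 (r = -0.28, adjusted permutation p = 0.325) passed by rho only, with rho = -0.59 and -0.52 (adjusted p = 0.0495 for each). Without high PAC replicate 3, Slc7a9 (r = -0.67, adjusted permutation p = 0.0382), Slc3a1 (r = -0.67, adjusted p = 0.0304) and Slc7a7 (r = -0.61, adjusted p = 0.0469) also fell with the score. Slc15a1 and Slc7a8, which had the largest differences with PAC among the abundant genes, are thus genes whose level moved with a score that was also highest in 2 water mice, and the part of the score in those differences was not tested.

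Slc6a14 also followed the mean of the 13 epithelial inflammatory response genes (r = 0.86, adjusted permutation p = 0.00484; rho = 0.66, adjusted p = 0.0247), with r = 0.83 without the 2 farthest mice. Without low PAC replicate 2 alone, r was 0.65 (adjusted permutation p = 0.0583). Of the 13 genes only 7 passed the filter on low counts, and the others have the same weight in the mean. As a description over the 12429 genes whose mean FPKM reached 1, the genes whose pattern within groups was most like a transporter's were Slc3a1 (r = 0.97), Srxn1 (0.96) and Lrp12 (0.96) for Slc7a9, Anpep (0.97), Mocos (0.96) and Srxn1 (0.96) for Slc7a7, and Edn3 (0.95), Osbpl3 (0.95) and Mme (0.95) for Slc15a1. For Slc6a19 they were Parp4 (0.97), Ubxn2a (0.97) and Cubn (0.97), for Slc7a8 1810055G02Rik (0.96), Enpp7 (0.96) and Maob (0.95), and for Slc1a1 Cap1 (0.91), Pdgfc (0.91) and Gfpt1 (0.90). For Slc3a1 they were Slc7a9 (0.97), Papss2 (0.96) and Anpep (0.95), for Slc6a20a Vps33b (0.94), Ldb3 (0.94) and Abca7 (0.94), for Slc3a2 Gramd1b (0.94), Gpt (0.94) and H2-Q2 (0.93), and for Slc6a14 4933434E20Rik (0.90), Tmco3 (0.89) and Fut2 (0.89).

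Related genes were taken from 5 lists, of transporter partners and ion transport, digestion, other transporters, amino acid stress and epithelial inflammation. The lists were chosen with earlier results of these data known, so the counts below do not test the lists as sets. None of their tested genes passed an adjusted p under 0.05 in edgeR in any comparison. Of partners and ion transport genes, 7 of 7 tested were lower with high PAC (median log2 fold change -0.34), and of genes of protein and peptide digestion 15 of 15 (median -0.23), beside 49.5% of all genes. Of 36 other amino acid and peptide transporters, 18 were lower (median -0.01), and of 20 amino acid stress response genes 11 were (median -0.01). Of 7 tested genes of the epithelial inflammatory response 6 were lower (median -1.24). With low PAC the counts that were lower were 7 of 7, 12 of 15, 16 of 36, 13 of 20 and 5 of 7 in the same order of lists, with medians of -0.24, -0.15, 0.02, -0.03 and -0.32, beside 54.5% of all genes. The inflammatory list with low PAC rested on low PAC replicate 2: without that mouse 6 of 7 were lower, each at an unadjusted p under 0.05 (2.13% of all genes), with a median of -1.42. The enterocyte markers were lower in 10 of 10 with high PAC (median -0.38) and in 10 of 10 with low PAC (median -0.22). At an unadjusted p under 0.05, 7 were lower with high PAC, beside 10.4% of all genes, and 0 with low PAC, beside 2.21%. The 7 became 4 with upper-quartile scaling (5.67% of all genes), without water replicate 3 (7.53%) or without water replicate 4 (9.79%). High PAC replicate 3 stood apart in these lists as well, with a summed FPKM of 2825.96 for partners and ion transport genes (other high PAC mice 5131.01 to 5600.74, water 5369.89 to 6875.1) and of 2811.88 for digestion genes (others 4625.61 to 4902.69, water 4318.15 to 5521.34). Without it, 7 of 7 partners and ion transport genes (median -0.20), 12 of 15 digestion genes (median -0.14) and 10 of 10 enterocyte markers (median -0.23, 5 with an unadjusted p under 0.05, beside 5.62% of all genes) were lower with high PAC, beside 46.1% of all genes. With upper-quartile scaling 36.7% of all genes were lower, and 7 of 7, 14 of 15 and 10 of 10 in these lists. In bulk tissue, fewer enterocytes and less transporter RNA per enterocyte cannot be told apart. Summed FPKM of 6 B cell markers ran from 5.5 to 214.1 and that of 5 smooth muscle markers from 207.9 to 887.11 across the mice, and the part of these tissues in the results was not tested.

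**Figure D4:**
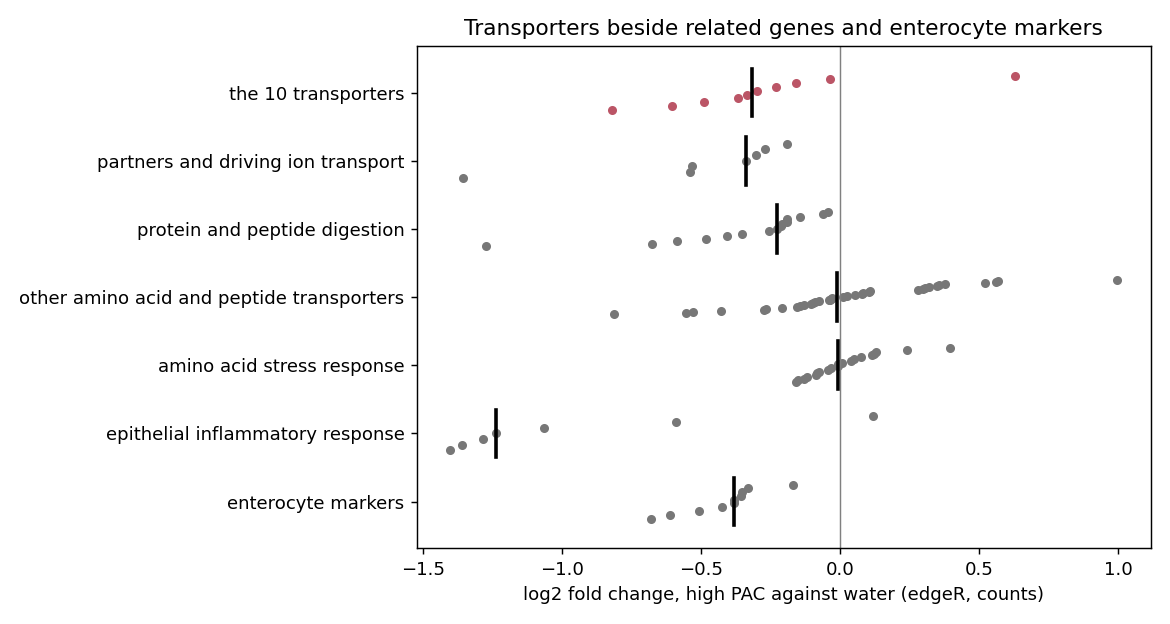
Log2 fold change in high PAC against water (edgeR, 15 mice) of the 10 transporters (red), of the tested genes of 5 related lists and of 10 enterocyte markers (grey), 1 point a gene. Black bars are medians; those of the transporters (-0.32), the partners (-0.34) and the enterocyte markers (-0.38) lie near each other, and that of the other amino acid transporters is at -0.01.

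Slc36a1, a proton-coupled amino acid carrier, was at 12.9 ± 3.76 FPKM with water and 7.80 ± 1.40 with high PAC, without overlap between the groups (log2 fold change -0.81 ± 0.17, edgeR adjusted p = 0.133). With low PAC it was at 9.11 ± 0.975 (log2 fold change -0.55 ± 0.17, edgeR adjusted p = 0.976). Slc9a3, the sodium-proton exchanger of the brush border, had a log2 fold change of -1.36 ± 0.34 with high PAC (edgeR adjusted p = 0.18), the peptidase Ace of -1.27 ± 0.30 (adjusted p = 0.162) and the aminopeptidase Lap3 of -0.59 ± 0.14 (adjusted p = 0.18). In DESeq2, Slc36a1, Slc9a3, Ace and Lap3 passed in that comparison (adjusted p = 0.00634, 0.0203, 0.0228 and 0.0247), where it called 0.779% of all genes. Since these genes were named for a small edgeR p on the same counts, the DESeq2 calls are not separate support. Slc16a10, an aromatic amino acid carrier, had a log2 fold change of -0.55 ± 0.19 with high PAC (edgeR adjusted p = 0.252), and Slc43a1 one of 0.35 ± 0.17 with low PAC (adjusted p = 0.976). The scaffold protein gene Pdzk1 had a log2 fold change of -0.24 ± 0.15 with low PAC, where Slc9a3 had -0.98 ± 0.34, Ace -0.84 ± 0.30 and Lap3 -0.43 ± 0.14 (edgeR adjusted p = 0.976 for each).

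In the amino acid stress response list, the genes with the smallest p were Phgdh (log2 fold change 0.24 ± 0.15) and Aldh18a1 (-0.13 ± 0.10) with high PAC and Trib3 (-0.44 ± 0.25) and Mthfd2 (-0.22 ± 0.16) with low PAC. None had an unadjusted p under 0.05. In the epithelial inflammatory response list, Nos2 had a log2 fold change of -1.28 ± 0.55 and Duox2 of -1.24 ± 0.56 with high PAC (edgeR adjusted p = 0.3 and 0.319), and Nos2 of -0.82 ± 0.54 and Saa1 of 1.15 ± 1.32 with low PAC (adjusted p = 0.976 for both). Saa1 reached 165.41 FPKM in low PAC replicate 2, and its log2 fold change turned to -3.16 without that mouse, to -2.17 in limma and to -0.62 with replicate number in the model.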

How the data were processed

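RNA-seq of ileum from 15 mice was analysed from the deposited tables. Per the labels' processing notes, HISAT, DESeq2 and mm10 were used, whereas the paper's methods name Bowtie2 for mapping and NOIseq for testing; the counting tool is not given in the sources used here. The authors deposited an expected count per gene, which is not normalized, and FPKM, scaled by the authors for length and library. The transporters and gene lists were chosen with earlier results of these data known. For the main test, edgeR 4.0.16 was given the rounded expected counts (TMM, filterByExpr, quasi-likelihood, 1 model of 15 mice, 14386 genes) in R 4.3.3, at a Benjamini-Hochberg adjusted p under 0.05. Alternatives were DESeq2 1.42.0, limma 3.58.1, other normalizations and filters, 2-group fits, a replicate block, pseudocount 1, and leaving out each mouse. DESeq2 was first run on every gene with a count and then on the genes edgeR kept, so as to change 1 choice at a time; both counts are given. NOIseq was re-implemented in Python 3.11.15 on FPKM (probability over 0.8, at least 2-fold, without predicted genes). Single genes were compared by exact permutation of 252 splits. The tests of level order were added after seeing the data. Named genes were the 10 transporters and, from each related list, genes past the threshold and the 2 with the smallest p in each PAC comparison with water. Scripts were tested on simulated data. The labels do not say whether mice shared cages or batches. Coverage limits only Slc6a14, whose counts were few. One gene and the results that need it are not reported here.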

Additional observations from a re-analysis of the deposited data

Results flagged for a closer look

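Of 30 groups of 5 mice (10 transporters in 3 groups), 5 held a mouse whose gap to the nearest other mouse was more than 0.71 of the range of the group. For separate groups of normal values chance gives about 1 in 20, but these 10 genes share the same mice and many vary together. The 5 were therefore not set against that rate, and 3 of them are high PAC replicate 3. High PAC replicate 3 was the low mouse for Slc6a19 (65.07 FPKM, others 206.97 to 239.75), Slc6a20a (50.69, others 97.81 to 115.78) and Slc7a9 (118.72, others 165.71 to 172.61). Low PAC replicate 2 was the high mouse for Slc6a14 (13.12 FPKM, others 0.07 to 0.32), and water replicate 2 for the same gene (0.44, others 0.05 to 0.12).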

How the results depend on the processing

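No transporter was called by edgeR under any normalization, filter or group choice, in DESeq2 or limma, or without any one mouse; NOIseq called 1, Slc6a14, with low PAC against water. With high PAC, 5 transporters were lower at an unadjusted p under 0.05 (10.4% of all genes), 3 in limma (3.67%) and between 3 and 5 without 1 mouse (3 without high PAC replicate 3, 5.62%). With low PAC this count was 1, beside 2.21% of all genes, but 3 with only the 2 groups (of 9 tested, 2.78% of all genes), 2 in both DESeq2 runs (1.89% and 1.69%), 0 in limma (0.918%) and between 0 and 4 without 1 mouse: 4 without high PAC replicate 3 (2.72%), 3 without water replicate 2 (3.33%), 2 without high PAC replicate 2 (2.14%), and 0 without water replicate 1, 3 or 4 or low PAC replicate 1 or 4 (1.27% to 2.46%). Genes called in high PAC against water numbered 2, but 4 with only the 2 groups, 9 in limma, 24 in NOIseq, 112 in DESeq2, 94 in DESeq2 on all genes and 136 with its own filter, and between 2 and 11 without 1 mouse (11 without high PAC replicate 2, 4 without water replicate 2). The runs of DESeq2 on all genes and with its filter, the counts at an unadjusted p and the list counts in other settings were added after seeing the data. For low PAC against water, 0 became 2 in all 3 runs of DESeq2, 18 in NOIseq and 1 without low PAC replicate 2 (range 0 to 1 without 1 mouse). For high PAC against low PAC, 0 became 15 in NOIseq. The causes were not tested.

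Log2 fold changes that turned sign were near 0 or rested on 1 mouse. For high PAC against water, Slc1a1 became 0.026 with upper-quartile scaling and 0.069 in limma, and without 1 mouse ranged from -0.13 to 0.036 (above 0 without water replicate 3 or high PAC replicate 3), as Slc6a20a did from -0.24 to 0.040 (without high PAC replicate 3). For low PAC against water, Slc1a1 became 0.0029 in limma, Slc6a14 ranged from -0.12 (without low PAC replicate 2) to 4.91 without 1 mouse, and Saa1 from -3.16 (the same mouse) to 1.82, with -2.17 in limma. For high PAC against low PAC, the ranges without 1 mouse were -0.21 to 0.11 for Slc6a19, -0.14 to 0.10 for Slc7a7 and -0.10 to 0.063 for Slc3a2 (all above 0 without high PAC replicate 3), -0.028 to 0.077 for Slc1a1 (below 0 without low PAC replicate 5 or high PAC replicate 4), and -3.86 to 0.75 for Slc6a14 (above 0 without low PAC replicate 2). The relation of Slc7a7 with Slc3a2 passed where group means were not subtracted (r = 0.63) and ranged from -0.19 to 0.71 without 1 mouse, with -0.19 without high PAC replicate 3. That of Slc6a14 with the inflammatory list ranged from 0.65 to 0.93. Relations with the position score turned for Slc7a9 (0.041), Slc3a1 (0.034) and Slc7a7 (0.0025) without group means subtracted, and for Slc6a20a without low PAC replicate 2 (range without 1 mouse -0.063 to 0.18), and Slc3a2 with the score fell to 0.50 in log2 CPM.

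Deviations of mice with the same number correlated between -0.213 and 0.446 (mean 0.151) for high PAC and water, between -0.26 and 0.368 (mean 0.12) for low PAC and water, and between -0.312 and 0.072 (mean -0.12) for high and low PAC, beside means of -0.038, -0.03 and 0.031 for differing numbers. Since not every pair was above 0.1 and the labels tie the numbers to nothing shared, they were not taken to pair the mice. With a replicate block, 0 transporters were called in each comparison, 4 were lower at an unadjusted p under 0.05 with high PAC (8.88% of all genes) and 0 with low PAC (1.95%), and Saa1 with low PAC turned to -0.62. Depth limits Slc6a14, with at most 29 counts in 14 mice. Mean levels moved by more than 1 SD in TPM for 9 of 10 transporters, with the order unchanged.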
